A study of Mus musculus with 16 samples.

Results

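*Ly6* genes encode small cysteine-rich surface proteins that are held on the cell membrane by a glycosylphosphatidylinositol (GPI) anchor, and their products are widely used to tell blood and immune cell types apart. Ly6a is Sca-1, the stem cell antigen also found on activated T cells. Ly6c1 and Ly6c2 carry the Ly6C antigen of monocytes and memory T cells, Ly6d marks lymphoid progenitors entering the B lineage and is also a thymocyte antigen, Ly6e is a thymic shared antigen of immature thymocytes, and Ly6k is best known from male germ cells. The 6 genes *Ly6a*, *Ly6c1*, *Ly6c2*, *Ly6d*, *Ly6e* and *Ly6k* were selected by symbol from the 22114 protein-coding genes in the count tables, because *Ly6c1* was low in one of the sorted populations. All 6 passed the filter on low counts in both experiments. They lie within 349915 bases of chromosome 15 in mm10, between positions 74762056 and 75111970, in the order *Ly6d*, *Ly6k*, *Ly6e*, *Ly6a*, *Ly6c1* and *Ly6c2*. *Ly6e* is on the plus strand and the other 5 are on the minus strand.

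The libraries were poly(A)-selected RNA-seq of DN3 thymocytes, the CD4-CD8-CD25+CD44- stage of T-cell progenitors, from mice labelled C57BL/6, whose lines had been backcrossed to C57BL/6J. In Lmo2Tg mice the CD2 promoter drives the T-cell oncogene *Lmo2* in T-lineage cells. The first experiment compared total DN3 cells of 6-week-old wild-type (WT, 3 libraries), p21-/- (lacking the cell-cycle inhibitor gene *Cdkn1a*, 2 libraries), Lmo2Tg (2 libraries, A and B, whose replicate numbers could not be assigned) and Lmo2Tg;p21-/- mice (2 libraries). The second compared GFPhi with GFPlo DN3 cells (labelled GFP Hi and GFP Low, 3 libraries each) from pooled Lmo2Tg mice that also carried a doxycycline-inducible H2B-GFP allele. All 6 of these libraries therefore carried the transgene, and GFPhi cells were those that had kept the label through a chase of 2 weeks after 6 weeks of doxycycline. The GFP libraries came from 3 separate cohorts. A figure legend of the paper gives these mice as 2 months old, whereas its methods give 6 weeks for mice used in expression profiling. RNA for expression profiling was described as prepared from pools of cells of several mice, but the sources used here do not say which mice went into each genotype library, so p-values measure the spread between libraries only.

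Total counts were 13864936 to 16837667 per genotype library and 26861394 to 31106213 per GFP library. At these depths 3 reads of a gene, the number below which a library was treated as holding too few reads, were worth 0.178 to 0.216 and 0.0964 to 0.112 CPM (counts scaled to the library total, with TMM factors for composition). *Lmo2* was at 41.4 to 107 CPM in the 4 transgenic genotype libraries and at 0.0636 to 0.306 CPM in the 5 others. *Cdkn1a* was at 36.5 to 49.0 CPM in WT, 26.3 to 32.8 CPM in Lmo2Tg, 14.3 to 17.7 CPM in p21-/- and 3.50 to 4.35 CPM in Lmo2Tg;p21-/- libraries. All 15 markers fixed for DN3 cells were detected in every group. GFPhi replicate 3 stood apart from the other GFPhi libraries, with *Lmo2* at 285 CPM (29.5 and 53.8 CPM in the others) and *Cdkn1a* at 6.56 CPM (29.9 and 35.8 CPM), so the GFP results are also given without it.

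*Ly6c1* and *Ly6c2* are close paralogs, and their sequences are shown because reads of one can be counted for the other and because their counts differed between groups in different ways. Their longest coding transcripts were identical at 803 of 844 aligned positions (95.1%), and 15.3% of the windows of 100 bases in the *Ly6c1* transcript also occurred in *Ly6c2*. In windows of 50 bases the shared part was 36.7% for *Ly6c1*, 33.0% for *Ly6c2* and 91 of 906 windows for *Ly6a*, whereas *Ly6d*, *Ly6e* and *Ly6k* shared none with any other annotated transcript. Values of *Ly6c1* and *Ly6c2* are therefore uncertain in how reads were split between them. The values of *Ly6k* are uncertain because the antisense gene *Gm17189* overlaps it, and whether strand was used in counting was not stated.

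The 250 bases before the start of *Ly6c1* (chr15:75048838-75049087, minus strand) and *Ly6c2* (chr15:75111972-75112221, minus strand) were taken from RefSeq on GRCm38.p6, which gave 2 starts for each gene. The first of each is printed 5′ to 3′. Capitals mark CANNTG, the E-box bound by E proteins, the DNA-binding partners of LMO2-containing complexes. The table of promoter sequences matched these 2 of the 6 genes.
Ly6c1: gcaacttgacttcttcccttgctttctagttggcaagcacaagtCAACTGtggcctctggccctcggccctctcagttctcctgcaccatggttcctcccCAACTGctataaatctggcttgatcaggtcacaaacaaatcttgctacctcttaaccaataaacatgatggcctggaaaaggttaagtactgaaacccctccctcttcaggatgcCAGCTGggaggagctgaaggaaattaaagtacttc
Ly6c2: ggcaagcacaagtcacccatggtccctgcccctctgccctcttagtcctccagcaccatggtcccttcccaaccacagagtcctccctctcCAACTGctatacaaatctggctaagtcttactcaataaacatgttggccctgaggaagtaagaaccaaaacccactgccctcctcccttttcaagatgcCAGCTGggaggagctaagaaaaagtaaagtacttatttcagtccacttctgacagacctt
*Ly6c1* held CAACTG at 206 and 150 bases before the start and CAGCTG at 35 bases before it. *Ly6c2* held CAACTG at 159 bases and CAGCTG at 60 bases before its start. The windows aligned with 170 identical bases over 284 positions, gaps included (59.9%). The annotated starts are offset, as CAGCTG lay 35 bases before the start in *Ly6c1* and 60 bases in *Ly6c2*. Bases outside the shared stretch count as gaps, so this value understates how alike the shared stretch is. TATAAA, searched on both strands, occurred in the *Ly6c1* window at 143 bases before the start and not in the *Ly6c2* window. It did not occur in the window of the second start of either gene, so this difference holds for the first *Ly6c1* start alone. Of all 32851 promoter windows of this length, 66.2% held CANNTG, 4271 (13%) held CAGCTG and 12.4% held TATAAA. A match describes the letters only.

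The 6 genes covered a wide range of levels. Scaled to the length of the longest coding transcript, in CPM per kb, WT DN3 cells held *Ly6e* at 775 (range 724 to 849, n = 3) and *Ly6d* at 494 (431 to 561). *Ly6a* was at 14.2 (12.1 to 16.9) and *Ly6k* at 13.3 (11.2 to 15.6), and the ranges of this pair overlapped. *Ly6c1* was lower, at 7.10 (6.52 to 8.13), and *Ly6c2* was at 0.201 (0.0736 to 0.298). The same order held in p21-/- cells, where *Ly6a* (14.92 to 15.04) and *Ly6k* (11.2 to 11.8) did not overlap. With the transgene the 3 genes of middle level stood in another order. In Lmo2Tg cells *Ly6k* was at 14.7 (11.1 to 18.3), *Ly6c1* at 9.78 (6.24 to 13.3) and *Ly6a* at 9.70 (8.09 to 11.3), all with overlap. In Lmo2Tg;p21-/- cells *Ly6c1* was at 16.9 (10.2 to 23.7), *Ly6k* at 14.9 (14.3 to 15.5) and *Ly6a* at 12.6 (11.1 to 14.1), and here *Ly6a* did not overlap with *Ly6k*. In GFPlo cells the order was *Ly6e* (1093), *Ly6d* (499.8), *Ly6k* (50.8, range 34.9 to 77.6), *Ly6c1* (33.1, range 30.5 to 37.7), *Ly6a* (27.7, range 26.7 to 29.2) and *Ly6c2* (0.854), with overlap between *Ly6k* and *Ly6c1*. In GFPhi cells *Ly6c1* (3.70 to 4.08) lay below *Ly6a* (10.7 to 18.1) and *Ly6k* (11.3 to 17.9), with no overlap. The experiments were normalised separately and their levels were not compared.

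*Ly6d* was lower in DN3 cells with the transgene on both p21 backgrounds. It was lower in Lmo2Tg than in WT cells and lower in Lmo2Tg;p21-/- than in p21-/- cells, by about the same fold. In CPM, *Ly6d* was at 320.3, 366 and 417 in the WT libraries and at 371 and 286 in the p21-/- libraries. It was at 206 and 111 in Lmo2Tg libraries A and B, and at 166 and 113 in the Lmo2Tg;p21-/- libraries. Every library with the transgene was below every library without it. Groups did not overlap for 60.9% of all tested genes in Lmo2Tg against WT and for 70.9% in Lmo2Tg;p21-/- against p21-/-. *Ly6d* fell by 1.21 on the log2 scale in Lmo2Tg against WT (SE 0.25, 95% interval -1.76 to -0.67, adjusted p = 0.0033, edgeR quasi-likelihood test with Benjamini-Hochberg adjustment over 11840 genes). It fell by 1.23 in Lmo2Tg;p21-/- against p21-/- (SE 0.26, interval -1.82 to -0.65, adjusted p = 0.0052). The difference between these changes was -0.02 (interval -0.80 to 0.76, adjusted p = 0.98). Without Lmo2Tg library B the change against WT was -0.84 (adjusted p = 0.019), and without Lmo2Tg;p21-/- replicate 2 the other change was -0.99 (adjusted p = 0.039), so that each then missed the 2-fold minimum.

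The level of *Ly6d* differed between transgenic libraries of 1 genotype, and *Lmo2* differed too. *Lmo2* was at 41.4 CPM in Lmo2Tg library A, where *Ly6d* was at 206 CPM, and at 100.4 CPM in library B, where *Ly6d* was at 111 CPM. In the Lmo2Tg;p21-/- libraries *Lmo2* was at 85.4 and 107 CPM beside *Ly6d* at 166 and 113 CPM. In GFPhi replicate 3 *Lmo2* was at 285 CPM and *Ly6d* at 145 CPM, the lowest *Ly6d* value of that experiment. GFPhi replicate 2 did not show this order. It had the lowest *Lmo2* level of the GFP libraries (29.5 CPM) with *Ly6d* at 312 CPM, below all GFPlo libraries, in which *Lmo2* was at 35.8 to 42.3 CPM. No relation was tested over so few libraries.

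Markers of DN3 and of other cell types moved with *Ly6d*. Of the 15 DN3 markers, 5 fell and 1 rose (*Hes1*) in Lmo2Tg against WT, where 12.0% of all tested genes passed the same test. In Lmo2Tg;p21-/- against p21-/-, where 10.4% of all genes passed, the same 5 fell and 1 other rose (*Dtx1*). The summed level of the 10 measured B-cell markers was 34.5 to 41.1 CPM in WT, 31.5 to 37.8 in p21-/-, 20.0 to 24.6 in Lmo2Tg and 23.3 to 25.4 in Lmo2Tg;p21-/- libraries, most of it from *Cd79b*. *Pax5* and *Ms4a1*, which define B cells, stayed at or under 0.858 CPM. The 10 plasmacytoid dendritic cell markers summed to 404 to 419 CPM in WT, 401 to 464 in p21-/-, 223 to 241 in Lmo2Tg and 213 to 239 in Lmo2Tg;p21-/- libraries. In Lmo2Tg against WT 3 of the 7 tested plasmacytoid markers fell, *Ccr9*, a chemokine receptor that thymocytes also carry (log2 fold change -3.63, adjusted p = 3.3e-07 in edgeR), *Spib* (-1.71) and *Irf8* (-1.35), and *Runx2* rose (1.20). *Ccr9* held most of the summed change, at 143 to 155 CPM in WT and 10.6 to 13.7 CPM in Lmo2Tg libraries, whereas *Cd300c* was at 0 in every library and *Siglech* was at or under 0.190 CPM. Markers of earlier thymic progenitors were higher with the transgene, with a sum of 104 to 132 CPM in WT, 123 to 134 in p21-/-, 273.5 to 394 in Lmo2Tg and 388.5 to 482.5 in Lmo2Tg;p21-/- libraries. Of 9 tested, 4 rose in Lmo2Tg against WT (*Hhex*, *Lyl1*, *Spi1* and *Kit*) and 1 fell (*Bcl11a*). The 10 markers of mature alpha-beta T cells summed to 1162 to 1231 CPM in WT, 1062 to 1141 in p21-/-, 1623 to 1649 in Lmo2Tg and 1790 to 1971 in Lmo2Tg;p21-/- libraries. Of these, 5 rose in Lmo2Tg against WT (*Cd5*, *Cd6*, *Cd8a*, *Klf2* and *S1pr1*) and 1 fell (*Ccr7*). Of 6 tested markers of gamma-delta, NK and innate-like T cells 3 rose in that comparison, and of 5 tested markers of endothelial and stromal cells 1 rose and 2 fell. The part of these cell types in the *Ly6d* change was not tested, and in sorted populations fewer cells of a type and less RNA per cell cannot be told apart.

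In all, 2 of the 6 members passed the test (over 2-fold, adjusted p under 0.05) in Lmo2Tg against WT, where 12.0% of all tested genes passed. These were *Ly6d*, which fell, and *Ly6c2*, which rose. In Lmo2Tg;p21-/- against p21-/-, 1 of 6 passed, *Ly6d*, against 10.4% of all genes. These comparisons share no libraries, though both came from the same fit of 9 libraries.

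**Figure D1:**
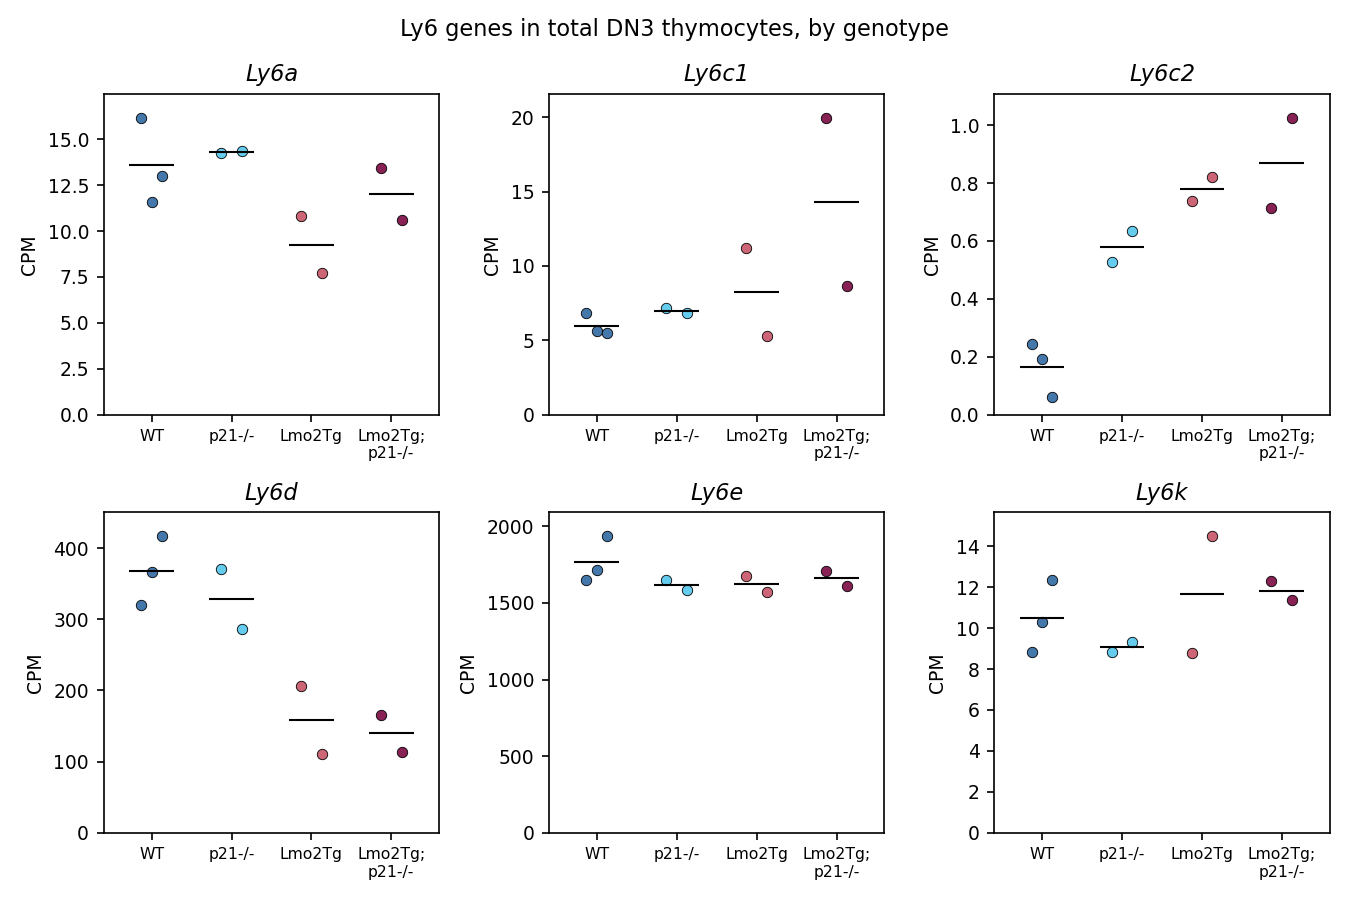
Level of each *Ly6* gene in CPM (linear axes from 0, each with its own scale) in total DN3 cells of the 4 genotypes. Each point is a library and each bar the group mean; *Ly6d* was at 111 to 206 CPM in the 4 transgenic libraries and at 286 to 417 CPM in the 5 others.

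*Ly6c2* was barely expressed in WT cells and its change rests on few reads. It was counted in 4, 3 and 1 reads in the WT libraries (0.245, 0.191 and 0.0605 CPM) and in 10 and 12 reads in Lmo2Tg libraries A and B (0.740 and 0.821 CPM). In p21-/- libraries it was counted in 9 and 10 reads (0.528 and 0.633 CPM), and in Lmo2Tg;p21-/- libraries in 10 and 17 reads (0.714 and 1.03 CPM). WT libraries thus lay below all 6 others. Against WT, the log2 fold change was 2.19 in Lmo2Tg (SE 0.52, adjusted p = 0.0079) and 1.76 in p21-/- (SE 0.54, unadjusted p = 0.0076, adjusted p = 0.98), in edgeR's test. With the reads of each group pooled and scaled to total counts, the ratio of Lmo2Tg to WT was 4.52 (22 against 8 reads, exact 95% interval 1.94 to 11.8), and that of p21-/- to WT was 3.49 (19 against 8 reads, interval 1.46 to 9.20). These intervals cover counting error only. The interaction was -1.60 (interval -3.13 to -0.06, unadjusted p = 0.043, adjusted p = 0.26). When reads of *Ly6c1* and *Ly6c2* were summed, the pair did not pass the test in Lmo2Tg against WT.

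Single markers of cells that carry Ly6C moved in both directions in the genotype libraries. The 12 markers of monocytes, neutrophils and macrophages summed to 22.6 to 35.6 CPM in WT, 32.4 to 38.9 in p21-/-, 35.4 to 36.0 in Lmo2Tg and 31.7 to 42.3 in Lmo2Tg;p21-/- libraries. In Lmo2Tg against WT *Mpo* (log2 fold change 5.19), *Itgam* (1.69) and *Cebpb* (1.43) rose, whereas *Lyz2* (-1.40) and *Ccr2* (-1.85) fell, among 9 tested, and *Elane* and *Cd14* were at 0 in Lmo2Tg libraries. In p21-/- against WT, 6 of 9 tested markers had a log2 fold change above 0, 3 were below 0 and 0 passed. *S100a8* (1.17 and 2.21 CPM) and *S100a9* (1.52 and 3.42 CPM) were above their highest WT values of 0.827 and 1.47 CPM. *Lyz2* (17.9 to 18.8 CPM) and *Itgam* (2.29 to 2.85 CPM) were also above their highest WT values, 16.6 and 2.02 CPM. So were *Cd14* and *Fcgr3*, at or under 0.352 CPM. In Lmo2Tg libraries *S100a8* was at 0 and 0.296 CPM and *S100a9* at 0.0684 and 0.0740 CPM, beside the rises and falls given above. *Ly6c2* was above WT in both genotypes. In Lmo2Tg;p21-/- libraries *S100a8* and *S100a9* overlapped with WT. Mature T-cell markers rose in Lmo2Tg cells, as given beside *Ly6d*. Their part in the *Ly6c2* values was not tested.

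*Ly6c1* varied more between libraries of the transgenic genotypes than between the other libraries. It was at 6.864, 5.598 and 5.504 CPM in WT and at 7.15 and 6.84 CPM in p21-/- libraries. It was at 11.2 and 5.27 CPM in Lmo2Tg libraries A and B, and at 20.0 and 8.63 CPM in Lmo2Tg;p21-/- replicates 1 and 2. Of the transgenic libraries, Lmo2Tg library B lay below every library without the transgene and the other 3 lay above them all. The log2 fold change was 0.46 in Lmo2Tg against WT (interval -0.35 to 1.26, adjusted p = 0.36), and it turned to -0.18 without library A. In Lmo2Tg;p21-/- against p21-/- it was 1.02 (SE 0.38, interval 0.18 to 1.87, adjusted p = 0.065), which missed the threshold in edgeR and passed it in DESeq2 (adjusted p = 0.021). That value rests on replicate 1: it was 0.29 without replicate 1 and 1.50 without replicate 2 (adjusted p = 0.0079). Leaving out either Lmo2Tg library, which enters this comparison only through the shared fit, brought the value past the threshold (adjusted p = 0.034 and 0.033).

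*Ly6a*, *Ly6e* and *Ly6k* did not pass the test in any genotype comparison. *Ly6a* was at 11.6 to 16.2 CPM in WT and at 10.8 and 7.73 CPM in Lmo2Tg libraries, groups that did not overlap. Its log2 fold change of -0.56 (interval -0.98 to -0.13) had an adjusted p of 0.044 in edgeR's test but was under 2-fold. *Ly6a* was at 13.4 and 10.6 CPM in Lmo2Tg;p21-/- libraries, beside 14.3 and 14.4 CPM in p21-/-, and the log2 fold change was -0.25 (interval -0.70 to 0.19). *Ly6e* stayed within 1572 and 1937 CPM over all 9 libraries. Its log2 fold change was -0.12 in Lmo2Tg against WT (interval -0.32 to 0.07) and 0.04 in Lmo2Tg;p21-/- against p21-/- (interval -0.17 to 0.25). *Ly6k* was at 8.80 to 14.5 CPM, and its extremes were both Lmo2Tg libraries.

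For loss of p21, no member passed the test with or without the transgene. In p21-/- against WT, 0 of 6 passed in edgeR, DESeq2 and limma-voom (0.101% of all genes passed in edgeR), and 1, *Ly6c2*, had an unadjusted p under 0.05. In Lmo2Tg;p21-/- against Lmo2Tg, 0 of 6 passed in each tool (1.88% of all genes in edgeR), and 0 had an unadjusted p under 0.05. The largest value there was that of *Ly6c1*, 0.79 (interval -0.05 to 1.63, adjusted p = 0.22), which ranged from 0.06 (without Lmo2Tg;p21-/- replicate 1) to 1.42 (without Lmo2Tg library A, adjusted p = 0.081) with a library left out, and was 0.34 without Lmo2Tg library B and 1.27 without Lmo2Tg;p21-/- replicate 2. For *Ly6d* the change with p21 loss was -0.16 without the transgene (interval -0.69 to 0.36) and -0.18 with it (interval -0.76 to 0.40). In the interaction of transgene and p21 loss 0 of 6 passed in each tool (0.802% of all genes in edgeR), and 1, *Ly6c2*, had an unadjusted p under 0.05. The 4 genotype comparisons share groups and are not independent of each other.

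**Figure D2:**
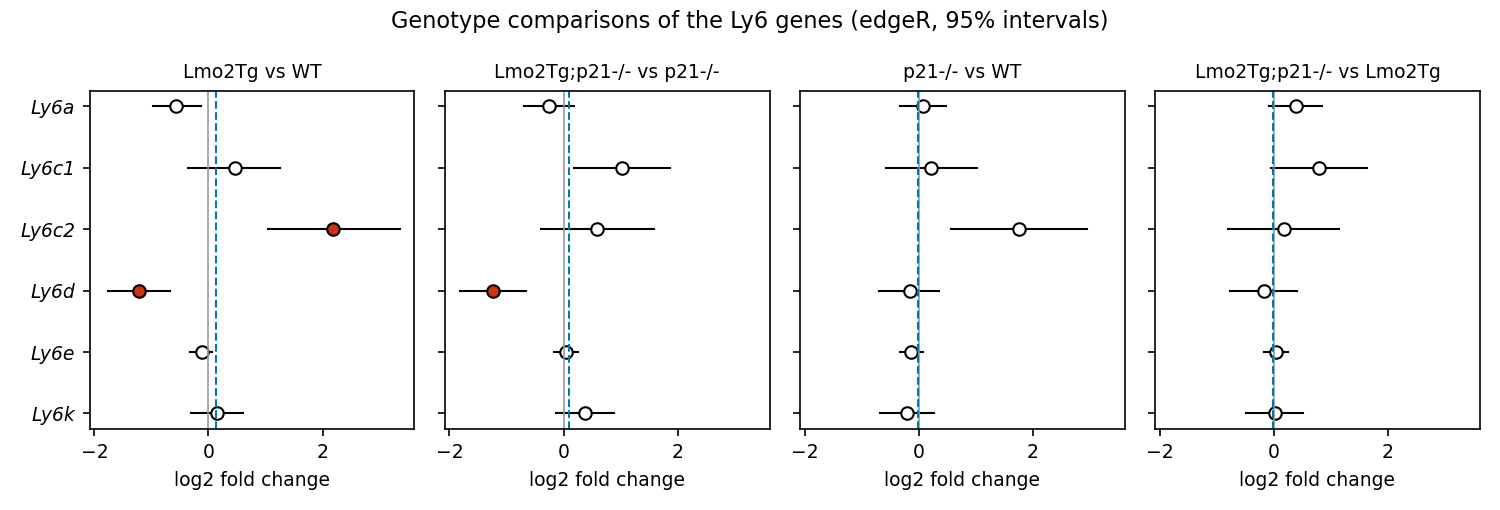
Log2 fold change of each *Ly6* gene (points, with 95% intervals) in the 4 genotype comparisons, from a fit of 9 libraries. Filled points passed the test, namely *Ly6d* at -1.21 and -1.23 and *Ly6c2* at 2.19; the dashed line is the median of the other chromosome 15 genes, between -0.02 and 0.13.

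In GFPhi against GFPlo cells the members were chosen with their values known, so these values are a description with no test. *Ly6c1* was at 3.12, 3.45 and 3.13 CPM in the GFPhi libraries and at 26.3, 25.7 and 31.8 CPM in the GFPlo libraries. The GFPhi values were close to each other, and all 3 were far below the GFPlo values. The log2 fold change was -3.11, a level 8.62-fold lower. *Ly6k* was at 8.93, 14.1 and 11.8 CPM in GFPhi and at 61.4, 31.6 and 27.6 CPM in GFPlo libraries, where replicate 1 was above the others. Its log2 fold change was -1.79, and -1.35 without GFPlo replicate 1. *Ly6a* was at 10.2, 10.8 and 17.2 CPM in GFPhi and at 27.9, 25.5 and 26.0 CPM in GFPlo libraries (log2 fold change -1.05), with the highest GFPhi value in replicate 3.

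*Ly6d* was at 305, 312 and 145 CPM in GFPhi and at 376, 367 and 372 CPM in GFPlo libraries. Its log2 fold change of -0.55 rests largely on GFPhi replicate 3 and was -0.26 without it. *Ly6e* was at 2070 to 2290 CPM in GFPhi and at 2462 to 2513 CPM in GFPlo libraries (log2 fold change -0.21). Of the 6 members, 3 were over 2-fold lower in GFPhi (7.48% of all 11581 tested genes were) and 5 did not overlap between the groups (41.3% of tested genes did not). Without GFPhi replicate 3, *Ly6c1* was at -3.08, *Ly6k* at -1.79 and *Ly6a* at -1.33 on the log2 scale.

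**Figure D3:**
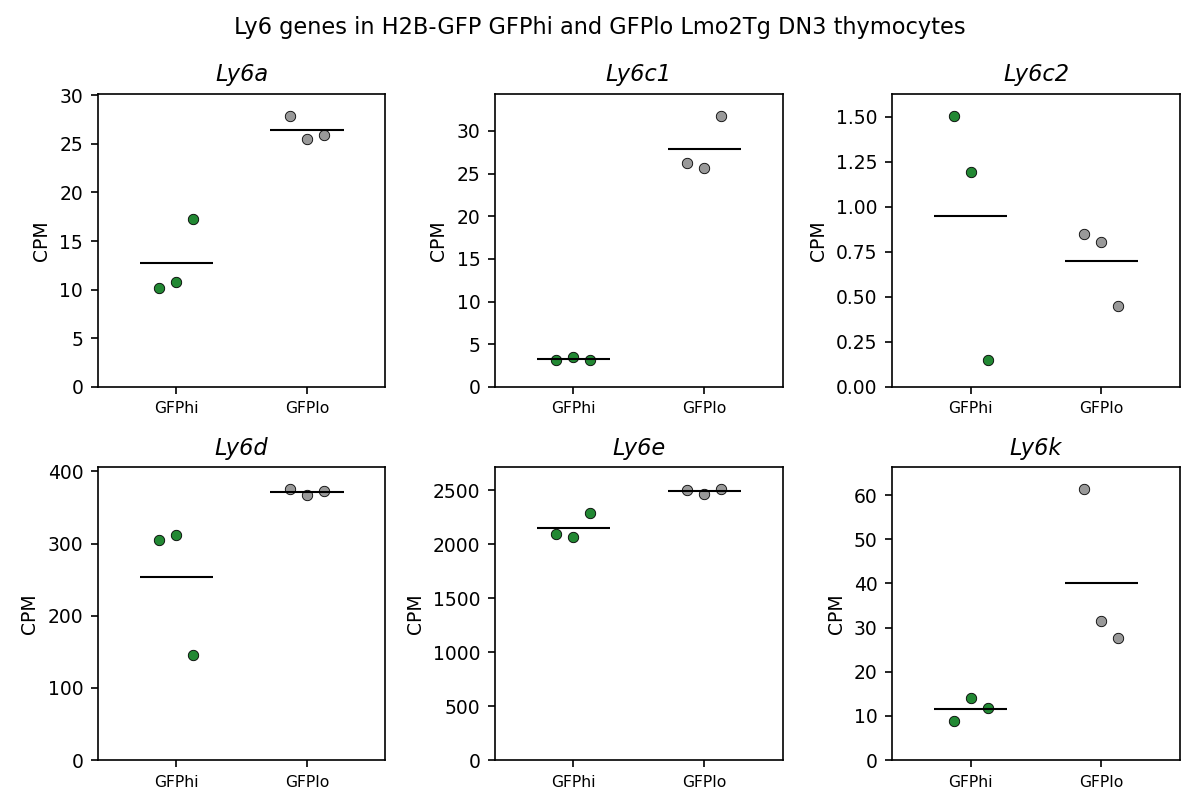
Level of each *Ly6* gene in CPM (linear axes from 0, each with its own scale) in GFPhi and GFPlo DN3 cells of H2B-GFP;Lmo2Tg mice. Each point is a library, in the order of replicates 1 to 3, and each bar the group mean; *Ly6c1* was at 3.12 to 3.45 CPM in GFPhi and at 25.7 to 31.8 CPM in GFPlo libraries.

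*Ly6c2* did not follow *Ly6c1*. It was counted in 41, 35 and 4 reads in the GFPhi libraries (1.51, 1.19 and 0.149 CPM) and in 23, 23 and 14 reads in the GFPlo libraries (0.851, 0.803 and 0.451 CPM). GFPhi replicates 1 and 2 lay above every GFPlo library and replicate 3 below them all, and the log2 fold change of 0.44 was 0.95 without replicate 3. Of the reads counted for either gene, *Ly6c2* took 32.5% (exact 95% interval 24.5 to 41.5), 25.7% (18.6 to 33.9) and 4.55% (1.25 to 11.2) in the GFPhi libraries and 3.14%, 3.03% and 1.40% in the GFPlo libraries. As above, the intervals cover counting error only. In the genotype libraries this share was 1.09 to 3.45% in WT, 6.87 and 8.47% in p21-/-, 6.17 and 13.5% in Lmo2Tg, and 3.45 and 10.6% in Lmo2Tg;p21-/- cells. Summed over both genes, the log2 fold change of GFPhi against GFPlo was -2.77.

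Genes of chromosome 15 were lower in GFPhi cells as a group, and the members share that chromosome. The median log2 fold change of the 458 other tested genes of chromosome 15 was -0.43, with 90.4% of them below 0, whereas it was 0.03 over 11096 genes of other chromosomes. All 22 other tested genes within 1 Mb of the members were below 0, with a median of -0.42. *Ly6d* and *Ly6e* differed from the chromosome median by -0.12 and 0.22. The differences were -0.62 for *Ly6a*, -1.36 for *Ly6k*, -2.68 for *Ly6c1* and 0.87 for *Ly6c2*. Of the 458 genes, 8 were lower than *Ly6c1*, 27 were lower than *Ly6k* and 48 were lower than *Ly6a*. With libraries scaled on chromosome 15 genes alone, the values were -2.67 for *Ly6c1*, -1.35 for *Ly6k*, -0.61 for *Ly6a*, -0.11 for *Ly6d*, 0.23 for *Ly6e* and 0.87 for *Ly6c2*, so that *Ly6e* changed sign. In the genotype comparisons the chromosome median was 0.13 in Lmo2Tg against WT and 0.09 in Lmo2Tg;p21-/- against p21-/-, opposite in sign to the *Ly6d* change. It was -0.01 in p21-/- against WT and -0.02 in Lmo2Tg;p21-/- against Lmo2Tg.

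**Figure D4:**
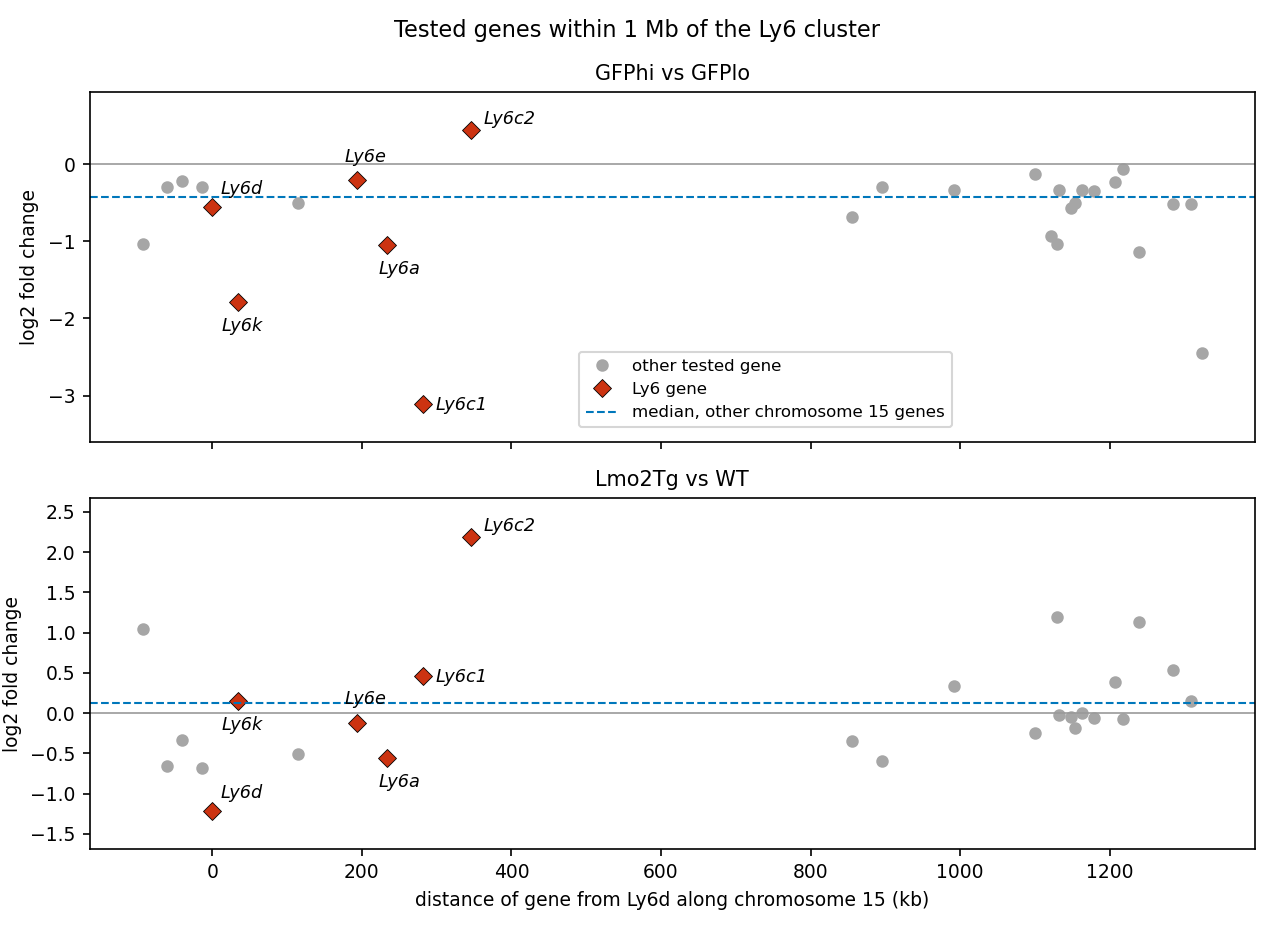
Log2 fold change of tested genes within 1 Mb of the *Ly6* cluster against distance from *Ly6d* in kb, for GFPhi against GFPlo (top) and Lmo2Tg against WT (bottom). Diamonds are the 6 *Ly6* genes, circles other genes and the dashed line the chromosome 15 median (-0.43 and 0.13); *Ly6c1* was at -3.11 in the top panel, where all 22 circles were below 0.

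Markers of other cells were also measured beside the GFP values. The 12 markers of monocytes, neutrophils and macrophages, cells that carry Ly6C, summed to 13.85 to 17.02 CPM in GFPhi and 19.8 to 22.7 CPM in GFPlo libraries, with *Elane* at 0 in both groups and *Cd14* at 0 in GFPhi. Of 5 tested, 5 had a log2 fold change below 0 and 0 were above 0 (median -0.44). *Itgam* (0.410 to 2.56 against 4.03 to 4.88 CPM) and *Ccr2* (0.184 to 0.921 against 1.33 to 2.76 CPM) were lower in GFPhi. *Csf1r*, which was not among these 5, was higher, at 0.335 to 1.02 CPM in GFPhi and at or under 0.0370 CPM in GFPlo libraries. Markers of earlier thymic progenitors summed to 289 to 474 CPM in GFPhi and 543 to 613 CPM in GFPlo libraries. Single genes of this list went both ways: of 8 tested, 4 had a log2 fold change above 0 and 4 below 0 (median -0.06). The 10 measured B-cell markers summed to 29.1 to 56.8 CPM in GFPhi and 24.9 to 28.5 CPM in GFPlo libraries, and *Ms4a1* was at 1.87 to 7.58 CPM in GFPhi and at or under 0.0322 CPM in GFPlo. Their part in the *Ly6* values was not tested.

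Within 1 Mb of the cluster 20 other genes were tested, and 2 of them passed in a genotype comparison. In Lmo2Tg against WT 1 of the 20 passed (12.0% of all genes), and 1 in Lmo2Tg;p21-/- against p21-/- (10.4%). In Lmo2Tg;p21-/- against Lmo2Tg 1 passed (1.88% of all genes), and 1 in the interaction (0.802%), where *Arc* was at -1.53 (adjusted p = 0.024 in edgeR). *Arc*, 93 kb from *Ly6d* and known as an activity-regulated gene of neurons, rose in Lmo2Tg against WT (log2 fold change 1.05, adjusted p = 0.00045 in edgeR) and fell in Lmo2Tg;p21-/- against Lmo2Tg (-1.42, adjusted p = 0.0029). *Fam83h* rose in Lmo2Tg;p21-/- against p21-/- (1.43, adjusted p = 0.032).

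The wider Ly6/uPAR family, whose proteins share the same fold, had 33 other genes in the tables. Of these, 7 passed the filter in each experiment, and 12 had no read in any genotype library. *Plaur*, the urokinase receptor, was at 8.55 and 14.9 CPM in Lmo2Tg, 0.242 to 0.509 CPM in WT, 0.117 and 1.46 CPM in p21-/- and 0.543 and 0.785 CPM in Lmo2Tg;p21-/- libraries. It rose in Lmo2Tg against WT (log2 fold change 4.80, SE 0.55, adjusted p = 8.5e-05 in edgeR) and fell in Lmo2Tg;p21-/- against Lmo2Tg (-4.14, SE 0.60, adjusted p = 0.0047), with an interaction of -5.02 (adjusted p = 0.043). *Cd59a*, an inhibitor of complement lysis, rose in Lmo2Tg;p21-/- against p21-/- (1.16, adjusted p = 0.0095). In Lmo2Tg against WT it was at 0.79 (adjusted p = 0.028, under 2-fold), and in GFPhi against GFPlo it was at -1.51. *Ly6g5b* rose in Lmo2Tg against WT (1.07, adjusted p = 0.030). Counting the members, 13 family genes were tested; 3 rose and 1 fell in Lmo2Tg against WT, with a median log2 fold change of 0.18 beside -0.01 for all genes. Calls over all tested genes were 12.0% in that comparison.

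Genes that make the GPI anchor and other GPI-anchored surface proteins were set beside the members. As given above, 12.0% of all genes passed in Lmo2Tg against WT and 1.88% in Lmo2Tg;p21-/- against Lmo2Tg. Of 30 tested genes of GPI anchor synthesis, 1 rose in Lmo2Tg against WT, *Dpm1* of dolichol phosphate mannose synthesis (log2 fold change 1.19, adjusted p = 0.00083), and the list median was -0.06. Of the 30, 0 passed in Lmo2Tg;p21-/- against Lmo2Tg, where 6 had an unadjusted p under 0.05. Of 16 tested genes listed as GPI-anchored T-cell surface proteins, 3 rose and 3 fell in Lmo2Tg against WT (median -0.14). The largest changes were those of *Nt5e*, the ecto-nucleotidase CD73 (2.14, adjusted p = 0.0021), and *Izumo1r*, folate receptor 4 (1.67, adjusted p = 0.0032). *Nt5e* was low, at 0.182 to 0.445 CPM in WT and 1.16 and 1.63 CPM in Lmo2Tg libraries, with its lowest WT value near the level of 3 reads. Of the 16, 0 passed in Lmo2Tg;p21-/- against Lmo2Tg, where 7 had an unadjusted p under 0.05. Several *Ly6* genes respond to interferon in other settings, and of 30 tested interferon-stimulated genes 1 rose, *Samhd1* (2.43, adjusted p = 3.4e-05), and 1 fell, *Ifi44* (-2.05, adjusted p = 8.5e-05), in Lmo2Tg against WT, with a median of 0.02. Of the 30, 0 passed in Lmo2Tg;p21-/- against Lmo2Tg, where 9 had an unadjusted p under 0.05. All these p-values are from edgeR's test. The share of all genes with an unadjusted p under 0.05 was not counted. In Lmo2Tg;p21-/- against Lmo2Tg an unadjusted p of 0.064 (*Ly6c1*) became 0.22 after adjustment, so low unadjusted p-values were common among all genes. The counts of unadjusted p-values therefore do not set these lists apart from other genes.

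Across the 9 genotype libraries, the genes whose log2 CPM was most like that of each member were listed among 11034 genes (11035 for *Ly6c2*) with a mean of at least 1 CPM. For *Ly6d* these were *Parvg* (Pearson's r = 0.989), *Cpne2* (0.981) and *Ifngr1* (0.980). For *Ly6c1* they were *Lpxn* (0.962), *Nfic* (0.962) and *Arhgap26* (0.945), and for *Ly6a* they were *Dag1* (0.944), *Wls* (0.934) and *Abcg2* (0.934). For *Ly6c2*, which had few reads, they were *Hnrnph3* (0.970), *Gm10767* (0.969) and *Gm28043* (0.962). For *Ly6e* they were *Gadd45gip1* (0.976), *Ptov1* (0.962) and *Tarbp2* (0.959), and for *Ly6k* they were *Klhl22* (0.927), *Strn4* (0.924) and *Polr2g* (0.918). Among the members themselves, r was 0.70 for *Ly6a* with *Ly6d* and -0.80 for *Ly6c2* with *Ly6d*. These values describe 9 libraries that share genotype groups, and the highest of so many genes are high by selection.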

How the data were processed

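Total DN3 thymocytes of 4 genotypes and GFPhi and GFPlo DN3 cells were profiled by RNA-seq. Raw counts of reads per protein-coding gene were deposited by the authors, 1 table per experiment. STAR 2.4.2a, featureCounts, limma and mm10 are named in the submitters' processing notes, and the read length is not given in the sources used here. The names of the tables differ in a word for strand, but the strand setting is otherwise not stated.

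Groups came from the labels. Of 10 genotype samples in the labels, 9 have a column used here. Lmo2Tg columns were matched to their group only, 1 column was not used, and p21-/- replicate 3 was not analysed here. Of 22114 genes, 98.6% were matched to GENCODE M21 for positions and lengths.

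Genes passing filterByExpr (minimum count 10, minimum total 15) were normalised by TMM and tested with edgeR 4.0.16 (R 4.3.3) quasi-likelihood fits, 1 over the 9 genotype libraries and 1 over the 6 GFP libraries. P-values were adjusted by Benjamini-Hochberg over all tested genes. A call needed over 2-fold and adjusted p under 0.05 (0.01 for the GFP background counts). CPM values are TMM-scaled, intervals cover 95%, and the script was tested on simulated data. Alternatives were DESeq2 1.42.0, limma-voom 3.58.1, other scalings, filters and thresholds, summed *Ly6c1* and *Ly6c2*, a replicate block and leaving out each library.

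The members, the gene lists and the tests were chosen with earlier results of these data known. Genes were named by rule: all 6 members, family genes that passed a genotype test or 2-fold in the GFP comparison, the 2 largest called genes of the GPI and interferon lists in Lmo2Tg against WT and in Lmo2Tg;p21-/- against Lmo2Tg, the 3 most alike genes per member, called neighbours, *Lmo2* and *Cdkn1a*. Cell type markers beside results were named after their values were seen. The list of GPI-anchored proteins holds *Tnfrsf10b*, which is not known to be anchored this way in mice and fell in Lmo2Tg;p21-/- against p21-/-. Sequence windows, motifs and identities were computed in Python from GENCODE transcripts and RefSeq promoters.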

Additional observations from a re-analysis of the deposited data

How the results depend on the processing

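Few reads limit *Ly6c2*, with 1 to 4 in each WT library, and 2 libraries in 3 of the genotype groups limit every genotype comparison. Of 629 values of single members under the alternatives, 596 kept their direction and their side of the threshold, or moved by less than the spread between replicates. Many of these could hardly change. Other thresholds reuse the same fold changes, leaving out a library of a group not compared barely moves them, and most genotype values had not passed the test. The count is therefore not a measure of how firm the calls are. The number of members passing the test in Lmo2Tg against WT went from 2 to 1 with *Ly6c1* and *Ly6c2* summed and was 1 to 2 with a library left out. In Lmo2Tg;p21-/- against p21-/- it went from 1 to 2, adding *Ly6c1*, with no filter and in DESeq2, and was 1 to 2 with a library left out. The cause was not tested. It was 0 under every alternative run in the other genotype comparisons. Members over 2-fold lower in GFPhi numbered 2 to 3 with a library left out.

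In the genotype comparisons, directions turned only in values that had not passed the test. In GFPhi against GFPlo, *Ly6c2* ranged from -0.04 to 0.95 with a library left out. Scaling on chromosome 15 genes gave -0.05 for *Ly6e* in Lmo2Tg;p21-/- against p21-/- and 0.05 for the *Ly6d* interaction, which was 0.03 in limma-voom. With each library left out in turn, the log2 fold change ranged from -0.18 to 0.91 for *Ly6c1* and -0.26 to 0.47 for *Ly6k* in Lmo2Tg against WT, and from -0.02 to 0.07 for *Ly6e* in Lmo2Tg;p21-/- against p21-/-. In p21-/- against WT it ranged from -0.37 to 0.01 for *Ly6d* and -0.03 to 0.22 for *Ly6a*. In Lmo2Tg;p21-/- against Lmo2Tg it ranged from -0.03 to 0.07 for *Ly6e*, -0.30 to 0.42 for *Ly6k*, -0.14 to 0.38 for *Ly6c2* and -0.56 to 0.32 for *Ly6d*. In the interaction it ranged from -0.16 to 1.20 for *Ly6c1*, -0.40 to 0.49 for *Ly6d* and -0.09 to 0.63 for *Ly6k*. Where a group was left with 1 library, that library was assumed to vary like the others. The fit of only the groups compared was not run for the interaction.

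Deviations from the group mean were compared for samples of equal replicate number. Their r was -0.237 and 0.303 for WT with p21-/-, 0.052 for p21-/- with Lmo2Tg;p21-/-, and -0.079 to 0.099 for GFPhi with GFPlo. Where both groups held 2 libraries the deviations mirror each other, so both pairs give 1 value. The numbers were not taken to pair the samples, though so few libraries cannot show whether they were paired. With the replicate block, *Ly6d* was at -1.24 in Lmo2Tg;p21-/- against p21-/- and 1 member passed, 0 members passed in p21-/- against WT, and 3 members were over 2-fold lower in GFPhi, with *Ly6c1* at -3.10. Over all genes the block left 0 of 261 calls in the GFP comparison. In Lmo2Tg;p21-/- against p21-/- there were 1279 calls in place of 1230. The genotype fit with the block also left out the Lmo2Tg libraries, which have no replicate number, so this change is not due to the block alone.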
